A study of Mus musculus with 2 samples.

Results

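The Steap3-Marco domain is a stretch of 410 kb on mouse chromosome 1 (chr1:122050001-122460000, mm9), between the boundary that lies below Steap3 and the boundary that separates Marco from En1. Its internal contacts were chosen by position: all pairs of 10 kb bins with both ends in the domain and at least 20 kb between their starts, which gave 780 of the 111629 such pairs in the map. The limits of the domain had themselves been selected on the measured contacts, through an insulation score with 150 kb windows. It was recalculated as the log2 mean balanced contact value (KR, described below) across a position, relative to the map's median. The recalculation found 13 boundaries and returned both limits. The score was −0.47 on the log2 scale in the boundary bin below and −0.46 in the first bin inside, and it was −1.35 in the last bin inside and −1.47 in the boundary bin above. These values, and the contrast between inside and outside that they describe, chose the members and support nothing further.

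The map is a capture Hi-C map of wild-type mouse limbs at the embryonic stage E10.5, made from fore- and hindlimb cells together. Per the labels, limbs were dispersed with trypsin and fixed in 2% PFA, chromatin was cut with DpnII and religated, and the library was enriched with SureSelect probes of a custom design. There were 2 samples, both wild type and both carrying the replicate number 2 in their titles. All values used here come from 1 map, named as merged, and the labels do not settle which libraries went into it. No replicate error could therefore be given: every interval below is a 95% interval for counting error alone, and no value shows how much embryos differ. Read pairs carry no molecular identifiers, so that counting error is itself a lower limit.

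In Hi-C, fixed chromatin is cut and religated, and each read pair records 2 positions that lay close together in a nucleus. Contact frequency falls with genomic distance, because neighbouring segments of a polymer meet more often than remote ones. On top of that fall, chromosomes are folded into domains whose inner contacts are raised. A widely held model has cohesin extrude loops of chromatin until it meets CTCF, a zinc finger protein with a directional DNA motif. Loop ends often carry motifs that point towards each other, and on a contact map such a loop appears as a strong spot at the corner of its domain. Cells of many types were mixed in these limbs, so a contact value is an average over them.

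The domain holds the start sites of 3 protein-coding genes in GENCODE M1. Steap3 (ENSMUSG00000026389.10, 122087334 to 122169282, minus strand) encodes an endosomal ferrireductase of iron uptake. C1ql2 (ENSMUSG00000036907.8, 122237159 to 122239748, plus strand) encodes a secreted protein with a C1q-like domain. Marco (ENSMUSG00000026390.1, 122371115 to 122401661, minus strand) encodes a scavenger receptor of macrophages. Another gene, 3110009E18Rik (ENSMUSG00000026388.9, 122017764 to 122084766, plus strand), runs into the domain from a start 32.2 kb below it. Transcription was not measured in this map.

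The DNA of the domain was searched on both strands for the core of the CTCF motif, since the corner of the domain is one of the results. The core was written as CCANNAGNNGGC, where N is any base. A stricter form of it held the free positions to C or G, C or T, A or G, and G or T, in that order, so that each of its matches is also one of the core. It matched 5 times in the domain. The matches are shown 5′ to 3′ along the strand that holds the motif, from the NCBIM37 genome (the same assembly as mm9), with the core in capitals and 20 bases on each side.

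Match 1: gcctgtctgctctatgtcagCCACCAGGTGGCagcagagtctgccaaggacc
Match 2: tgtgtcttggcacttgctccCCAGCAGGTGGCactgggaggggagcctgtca
Match 3: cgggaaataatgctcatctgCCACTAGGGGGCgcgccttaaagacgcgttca
Match 4: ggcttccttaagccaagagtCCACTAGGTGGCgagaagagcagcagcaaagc
Match 5: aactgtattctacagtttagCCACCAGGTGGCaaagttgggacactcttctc

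Match 1 (chr1:122093910-122093961) lay on the plus strand in an intron of Steap3. Match 2 (chr1:122196652-122196703) was intergenic on the plus strand, 27.4 kb from Steap3. Match 3 (chr1:122224424-122224475) was on the plus strand and match 4 (chr1:122234718-122234769) on the minus strand, 12.7 and 2.42 kb from C1ql2. Match 5 (chr1:122446995-122447046) was intergenic on the minus strand, 45.4 kb from Marco, inside the upper corner bin described below. The 3 lower matches thus point up towards the Marco side, and matches 4 and 5 point down. Matches to the stricter form lay in 5 of the 41 bins of the domain (12.2%) and in 29 of the 475 bins of the map (6.11%). The looser core matched in 21 domain bins (51.2%) and in 41.7% of all bins. A match is a stretch of letters: binding of CTCF was not measured here.

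All 780 member pairs had read pairs, from 37 to 1875 with a median of 186.5, against a median of 6 for map pairs at 20 kb or more. They held 196677 of the 3211971 read pairs at such distances, which is 6.12% of the reads in 0.699% of the pairs. Map pairs reach much longer distances than members do, so these medians and shares are not matched for distance. The domain was well covered: its 41 bins had totals from 12485 to 51135, with a median of 26378 against 22376 for the whole map, and none was among the map's 56 bins under 25% of that median. The lowest totals were 12485 in the bin 122230001 to 122240000, which holds C1ql2, 15047 in 122170001 to 122180000 and 15868 in the first bin, 122050001 to 122060000. At 5 kb the domain comprised 3081 pairs with a median of 45 read pairs, of which 1 had none.

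Contacts inside the domain fell with distance to about 240 kb and then rose again. The balanced value (KR, the authors' matrix-balanced signal, in which every bin has the same total) averaged 621 ± 3.76 at 20 kb (mean ± counting standard error), 264 at 50 kb, 166 at 100 kb and 117 at 200 kb. It was lowest at 240 kb, with a mean of 107 ± 2.27 over 17 pairs, which is 5.81 times below the mean at 20 kb. From there it climbed to 129 at 300 kb, 163 at 350 kb and 187 ± 7.59 at 380 kb, where 3 pairs remained. The last distances, 390 kb with 2 pairs and 400 kb with 1, had means of 175 and 120. Just outside the members, at 10 kb, the mean was 1496.

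**Figure D1:**
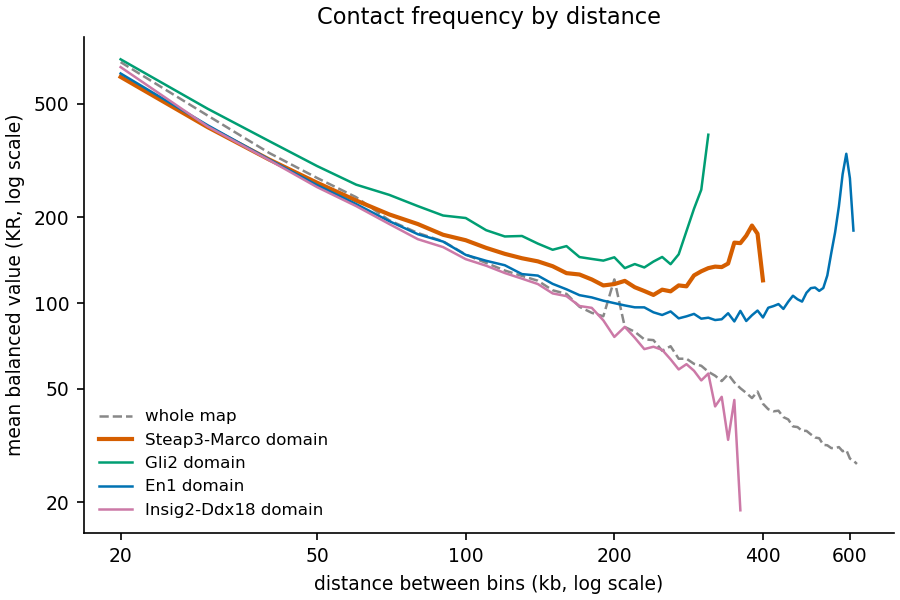
Mean balanced value (KR, vertical, log scale) against the distance between 10 kb bins (kb, horizontal, log scale) for pairs inside the Steap3-Marco domain, inside the Gli2, En1 and Insig2-Ddx18 domains, and in the whole map (dashed). Inside the Steap3-Marco domain the mean fell from 621 at 20 kb to 107 at 240 kb and rose to 187 at 380 kb, whereas the whole map fell to 46.5 at that distance.

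The decay slope was fitted by least squares to the log10 mean KR value against the log10 distance, from 20 to 300 kb. It was −0.577 inside the domain, with a counting standard error of 0.00379 and a standard error of the fit of 0.0313. The second error is larger because the decay was not a straight line: the slope was −0.819 from 20 to 100 kb, −0.526 from 100 to 200 kb and 0.168 from 200 to 300 kb. Over the same 20 to 300 kb the whole map had a slope of −0.860, so that contacts in the domain fell less steeply, by 0.283 (0.273 to 0.293). Of the 3 other domains compared, the domain of Gli2, a transcription factor of Hedgehog signalling, decayed less steeply, with a slope of −0.485. The domain of En1, a homeobox factor of the ventral limb ectoderm, decayed more steeply, at −0.690, as did the Insig2-Ddx18 domain, at −0.868. The difference from the Gli2 domain was −0.0918 (−0.104 to −0.0798), beyond the counting error but of the size of the fits' own standard errors (0.0313 and 0.0566). The Gli2, En1 and Insig2-Ddx18 domains are 320, 620 and 370 kb long, so the same range covers a different share of each. From 20 to 100 kb their slopes were −0.806, −0.900 and −0.948. From 200 to 300 kb the Gli2 slope was 1.22, against 0.168 in the Steap3-Marco domain. The part of domain length in these differences was not tested.

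From 240 kb to the longest distance the slope turned positive, at 0.906 with a counting standard error of 0.0719 and a standard error of the fit of 0.167. The whole map kept falling over 240 to 400 kb, with a slope of −0.921. The rise was measured as the mean KR value of the pairs at 350 to 400 kb over that of the pairs at 210 to 250 kb. The 21 far pairs averaged 167 and the 90 middle pairs 113, a ratio of 1.48 (1.43 to 1.54). At the matching shares of their lengths the ratio was 1.53 (1.47 to 1.58) in the Gli2 domain and 2.02 (1.97 to 2.06) in the En1 domain. It was 0.509 (0.463 to 0.555) in the Insig2-Ddx18 domain, where contacts went on falling. The rise was therefore shared by 3 of the 4 domains, and its size in the Steap3-Marco domain could not be told from that in the Gli2 domain at this depth. Without the 2 corner bins described below, 12 far pairs remained and the ratio was 1.27, and on raw counts it was 1.26.

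To compare pairs at different distances, the read pairs of each were divided by the number expected from the mean KR value at that distance in the whole map and the balancing factors of both bins (observed/expected, O/E). Over all members O/E was 1.09 (1.087 to 1.096), against 1.18 in the Gli2 domain, 1.13 in the En1 domain and 0.939 in the Insig2-Ddx18 domain. Single members ranged from 0.611 to 5.89 with a median of 1.14 and quartiles of 0.973 and 1.42. Of the 780, 377 had an interval wholly above 1 and 107 an interval wholly below it. The near pairs were at or below the map's level and the far pairs above it: O/E was 0.957 (0.952 to 0.963) up to 25% of the domain's length, then 1.17 up to 50%, 1.64 up to 75% and 2.69 (2.64 to 2.74) beyond. The 66 pairs at 300 kb or more all lay above 1 with their whole interval, between 1.36 and 5.89, and 52 of them lay above 2. The expected number comes from the whole map, and the domain was chosen on these contacts. The share of map pairs beyond the same limits was not taken, so nothing is read from these counts. Beyond 75% of the length O/E was 2.44 in the Gli2 domain, 4.07 in the En1 domain and 0.898 in the Insig2-Ddx18 domain.

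**Figure D2:**
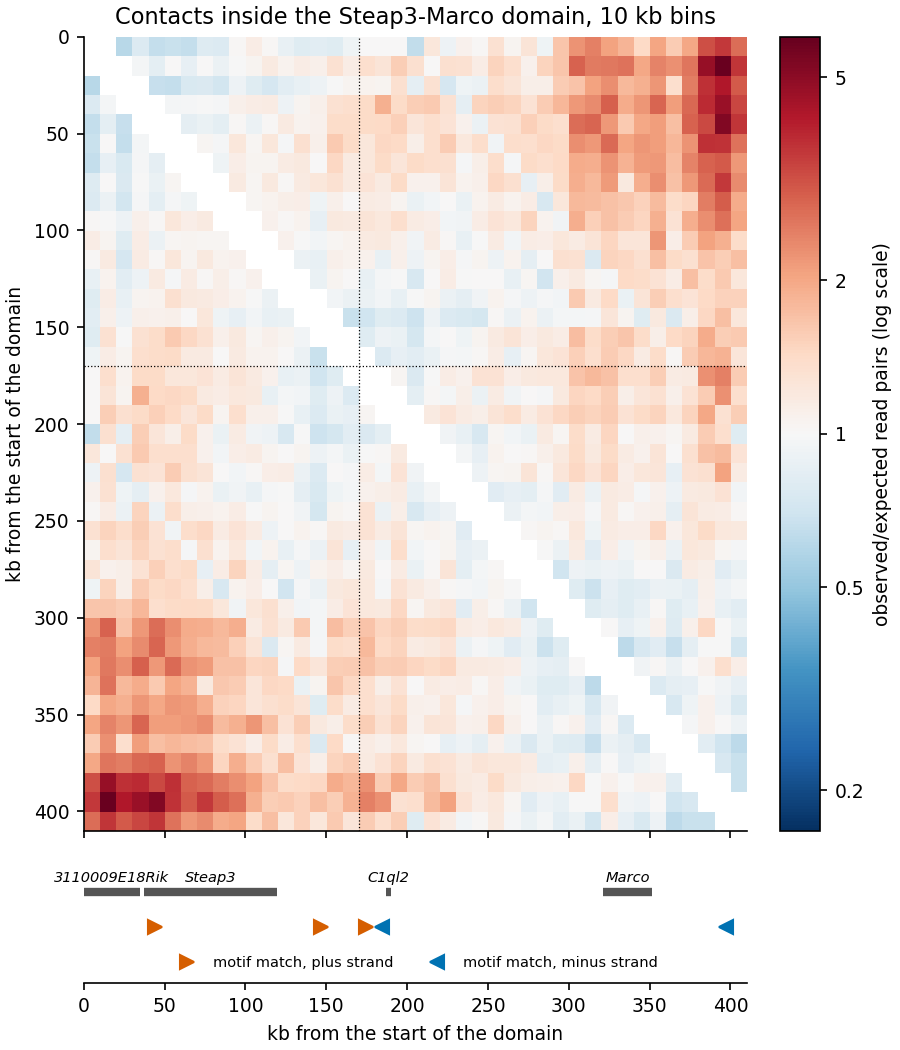
Observed/expected read pairs (colour, log scale) for every pair of 10 kb bins at 20 kb or more inside the domain; both axes give kb from the start of the domain, dotted lines mark the sub-boundary at 170 kb, and bars and arrowheads below mark genes and the 5 motif matches with their strand. Values near the diagonal are close to 1 or below it, and the highest value, 5.89, lies at the corner.

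The raised contacts lay between the ends of the domain, which are also the parts farthest from each other. With the domain cut into 4 segments of 100, 100, 100 and 110 kb, each segment had fewer contacts with itself than the expected number, with O/E of 0.911, 0.930, 0.952 and 0.874 from the Steap3 end to the Marco end. Neighbouring segments were near the expected number, at 1.12 for segments 1 and 2 and 1.04 for segments 2 and 3 and for segments 3 and 4. Segments 1 and 3 reached 1.19, and segments 2 and 4 reached 1.41 (1.38 to 1.43). The first and last segments, which hold most of Steap3 and all of Marco, had 21001 read pairs against 9255 expected, an O/E of 2.27 (2.24 to 2.30). All 110 pairs between these end segments were above 1, from 1.19 to 5.89. The segment pairs differ in distance: pairs within a segment lay at most 100 kb apart, those between the end segments 210 to 400 kb. Since O/E rose with distance over all members, these values restate that rise by position. A part of position beyond distance was not tested.

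A weak inner division lay beside C1ql2. An inner insulation score was taken at each bin edge as the mean KR value of contacts from the 50 kb below it to the 50 kb above it, on the log2 scale relative to the domain's median. It ranged from −0.20 to 0.16 over 32 edges. A sub-boundary was a local minimum with a prominence of at least 0.2, and there was 1, at the edge before 122220001. Its score was −0.20 ± 0.02 (counting standard error) with a prominence of 0.31. It lay 4.44 kb below motif match 3, 14.7 kb below match 4 and 17.2 kb below the start of C1ql2. The low point nearest to it in depth, at the edge before 122370001 beside the 3′ end of Marco, also scored −0.20, with a prominence of 0.12. The windows fit inside the domain only up to the edge before 122410001, which scored −0.08. That prominence is therefore limited by the end of the scan, and which division is the stronger was not settled.

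**Figure D3:**
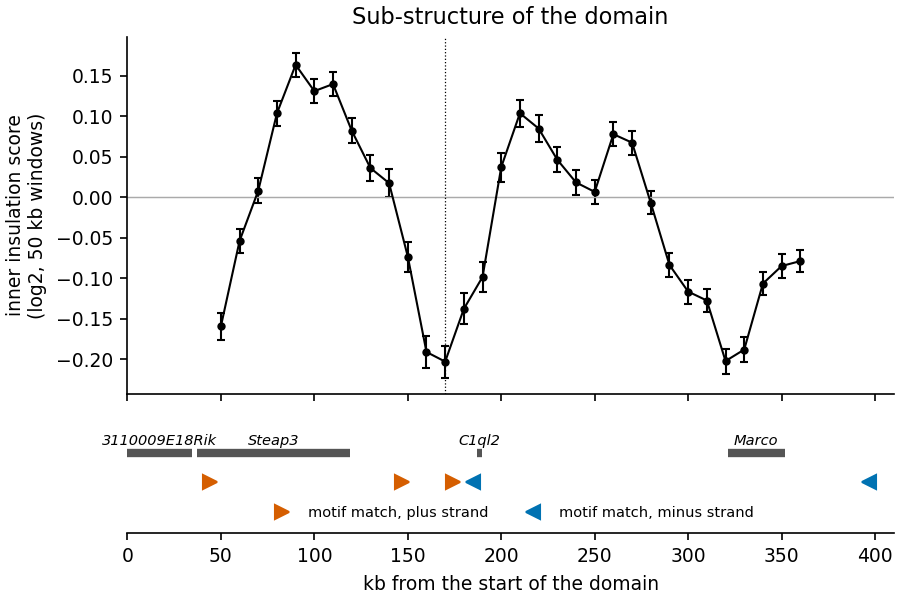
Inner insulation score (log2, vertical; points with bars for the counting standard error) at each 10 kb edge inside the domain, against kb from the start of the domain, with genes and motif matches below. The score was lowest at 170 kb, at −0.20, and rose on both sides, to at most 0.16 at 90 kb.

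The edge was picked as the lowest point of contacts across it, and the limits of the domain were picked likewise, so the values across them are descriptions of that choice. Between the 50 kb on either side of the sub-boundary O/E was 0.861 (0.839 to 0.882), compared with 0.726 (0.705 to 0.748) across the boundary below the domain and 0.366 (0.353 to 0.378) across the boundary above. Pairs that crossed the sub-boundary were also set against pairs on one side of it within bands of distance, without matching distances inside a band. The ratio was 0.898 (0.870 to 0.927) at 20 to 50 kb, 0.952 (0.929 to 0.976) at 60 to 100 kb, 0.940 (0.923 to 0.959) at 110 to 200 kb and 0.852 (0.798 to 0.911) at 210 to 300 kb. In that last band only 939 read pairs lay on one side, against 23028 that crossed. Neither side is long enough to hold the longest distances of the band, so nothing is read from its ratio. Pooled over 20 to 300 kb the ratio was 1.24 (1.23 to 1.25), opposite in direction to every distance band: more of the crossing read pairs were at long distances, where O/E was higher on both sides of the comparison. A division at this edge was found with windows of 30, 50 and 80 kb and at 5 kb, the 30 kb window placing it 1 bin lower.

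The corner of the domain is the pair of the bin 122060001 to 122070000 with the bin 122440001 to 122450000, 380 kb apart. It was singled out from earlier results of these data, so its values are a description. It held 275 read pairs against 46.7 expected, an O/E of 5.89 (5.22 to 6.63), with a KR value of 274. This was the highest O/E of the 780 members and of the 435 map pairs at 380 kb, whose median was 39 read pairs and a KR value of 38.4. The ring of 112 pairs lying 2 to 5 bins away, part of which lies outside the domain, had an O/E of 1.84, so that the corner stood 3.20 times above it. Against the 40 ring pairs inside the domain the ratio was 2.41.

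The lower corner bin overlaps exon sequence of 3110009E18Rik and lies 17.3 kb below Steap3. The upper corner bin is intergenic, 38.3 kb above Marco and 49.0 kb below En1. Their totals were 26415 and 21563 read pairs, against a median of 26378 in the domain, and each held 23 DpnII sites against a median of 24 in the domain.

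The corner was the top of a broad area and not an isolated spot. Its 8 neighbouring pairs, all members, had O/E from 2.71 to 4.77 with a median of 3.58 and 109 to 337 read pairs, and 7 of the 8 had intervals wholly below that of the corner. The 9 pairs together gave 3.85 (3.69 to 4.03) from 1954 read pairs. The second highest member was the upper corner bin with 122090001 to 122100000, in Steap3, at 5.28 (4.63 to 5.99) from 241 read pairs. The corner over this pair was 1.12 (0.936 to 1.33), so the order of these 2 pairs was not detectable at this depth. The next pairs, 122060001 with 122430001 and 122080001 with 122440001, were lower: the corner over them was 1.24 (1.05 to 1.45) and 1.26 (1.05 to 1.52). In the block of 7 by 7 bins around the corner, the upper corner bin was the strongest partner of 6 of the 7 lower bins, and the lower corner bin that of 5 of the 7 upper bins.

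The area ended differently at its 2 sides. Upward, the lower corner bin had an O/E of 3.06 (2.46 to 3.77) with the boundary bin 122460001 to 122470000 and 1.35 (1.05 to 1.72) with the next bin, already on the En1 side. Downward, the upper corner bin kept an O/E of 4.02 (3.47 to 4.64) with the boundary bin 122040001 to 122050000, from 188 read pairs, and 2.23 (1.81 to 2.73) with 122030001 to 122040000. Contacts of the upper corner bin thus ran past the lower limit of the domain, while those of the lower corner bin dropped within 20 kb of the upper limit.

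At 5 kb the corner consists of 4 pairs, and the enrichment was in all of them. Between 122060001 to 122065000 and 122440001 to 122445000 lay 76 read pairs, an O/E of 4.47 (3.52 to 5.60). Between the same lower bin and 122445001 to 122450000 lay 34, an O/E of 5.10 (3.53 to 7.13). The next lower bin, 122065001 to 122070000, held 108 read pairs with the first upper bin, an O/E of 6.34 (5.20 to 7.66). With the other upper bin it held 57, an O/E of 8.78 (6.65 to 11.4). The last was the highest of the 100 pairs of 5 kb bins around the corner, which ranged from 1.07 to 8.78 with a median of 2.94, and 13 of the 96 pairs outside the corner were above the lowest of its 4. The 4 pairs together gave 275 read pairs and an O/E of 5.83 (5.16 to 6.56), close to the value at 10 kb. The strongest pair rests on the bin 122445001 to 122450000, whose total of 6259 read pairs was below those of the 3 other corner bins (13599 to 15580), so its interval is wide. The part of this lower coverage in the value was not tested.

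**Figure D4:**
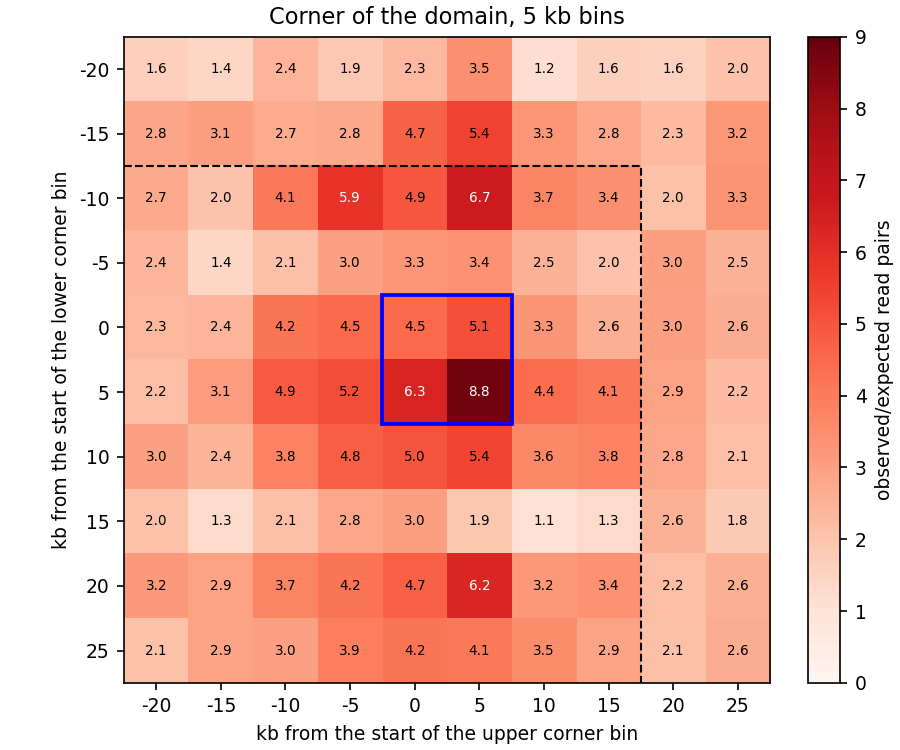
Observed/expected read pairs (colour and printed values) for 10 by 10 pairs of 5 kb bins around the corner; the axes give kb from the start of the lower and upper 10 kb corner bins, the blue square marks the corner's 4 pairs and the dashed line the limits of the domain. The highest of the 100 values, 8.78, is in the square, and raised values run along the row and the column through it.

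Summed over the 10 lower bins, the 5 kb bin 122445001 to 122450000 had the highest O/E of the upper side, at 5.04 (4.49 to 5.64), ahead of 122440001 to 122445000 with 4.32 (4.00 to 4.65). This is the bin that holds motif match 5. On the lower side 122065001 to 122070000 was highest, at 4.34 (4.01 to 4.70). The bins 122055001 to 122060000 and 122075001 to 122080000, on its 2 sides, were lower, at 2.47 and 2.00, and the bins beyond them were again at 3.87 and 3.61. The lower side thus had 3 separate maxima, and the upper side had 1. The lower maximum of 3.87, at 122050001 to 122055000, rests on the lowest total of that side, 5377 read pairs. The part of coverage in these maxima was not tested.

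The lower corner bin holds no match to the stricter motif and none to the looser core. Its only match to the stricter form with 1 mismatch allowed, at position 2 counted from the 5′ end of the core, is shown with the core in capitals and the mismatched base in lower case. It lies on the plus strand (chr1:122069611-122069662), where it overlaps an exon of 3110009E18Rik, in the 5 kb bin 122065001 to 122070000, and faces match 5.

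Lower corner match: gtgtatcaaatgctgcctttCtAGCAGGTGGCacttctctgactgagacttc

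Matches with 1 mismatch lay in 54.3% of the map's bins and 68.3% of the domain's, so the presence of one in a given bin is common.

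Pairs of bins that hold the 5 stricter matches differed widely in contact. The bins of matches 1 and 5, which face each other over 350 kb, are the pair with an O/E of 5.28, 2.80 times its ring. Matches 3 and 5, facing over 220 kb, had 192 read pairs and an O/E of 2.48 (2.14 to 2.86), 2.23 times the ring. Matches 4 and 5 point the same way, and their bins had a similar O/E of 2.27 (1.83 to 2.79), but these bins adjoin those of the previous pair. Matches 2 and 5 face each other and had 1.71 (1.41 to 2.05). The pairs without match 5 were lower: facing matches 1 and 4 had 1.42, facing matches 2 and 4 had 0.808, and the same-strand pairs of matches 1, 2 and 3 had between 0.704 and 1.40. The pairs with match 5 were also the longest, at 210 kb or more, where all others lay at 140 kb or less. The bin of match 5 and distance therefore cannot be told apart here. Whether orientation played a part was not tested. At 5 kb, matches 1 and 5 had 44 read pairs and an O/E of 6.06 (4.40 to 8.13), the third highest of the 49 pairs around them. Matches 3 and 5 had the same rank, from 15 read pairs. All other pairs of matches ranked between 14 and 45 of 49.

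Seen from each corner bin, the domain was not evenly contacted. For the lower corner bin O/E was 0.948 (0.914 to 0.983) at 20 to 90 kb, 1.23 at 100 to 190 kb, 1.36 at 200 to 290 kb and 2.94 (2.82 to 3.06) at 300 to 390 kb. For the upper corner bin the same bands gave 0.914 (0.879 to 0.949), 1.19, 1.74 and 3.83 (3.66 to 4.00). The 2 bins had the highest O/E summed over all their partners in the domain, 1.37 (1.34 to 1.40) for the upper and 1.33 (1.30 to 1.36) for the lower. The bin 122080001 to 122090000, which holds the ends of both 3110009E18Rik and Steap3, followed with 1.30. The lowest were 122190001 to 122200000 at 0.915, 122410001 to 122420000 at 0.918 and 122280001 to 122290000 at 0.960, all intergenic. In all, 30 of the 41 bins had an interval wholly above 1 and 5 an interval wholly below. The same count was not taken for other stretches of the map, so nothing is read from it.

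**Figure D5:**
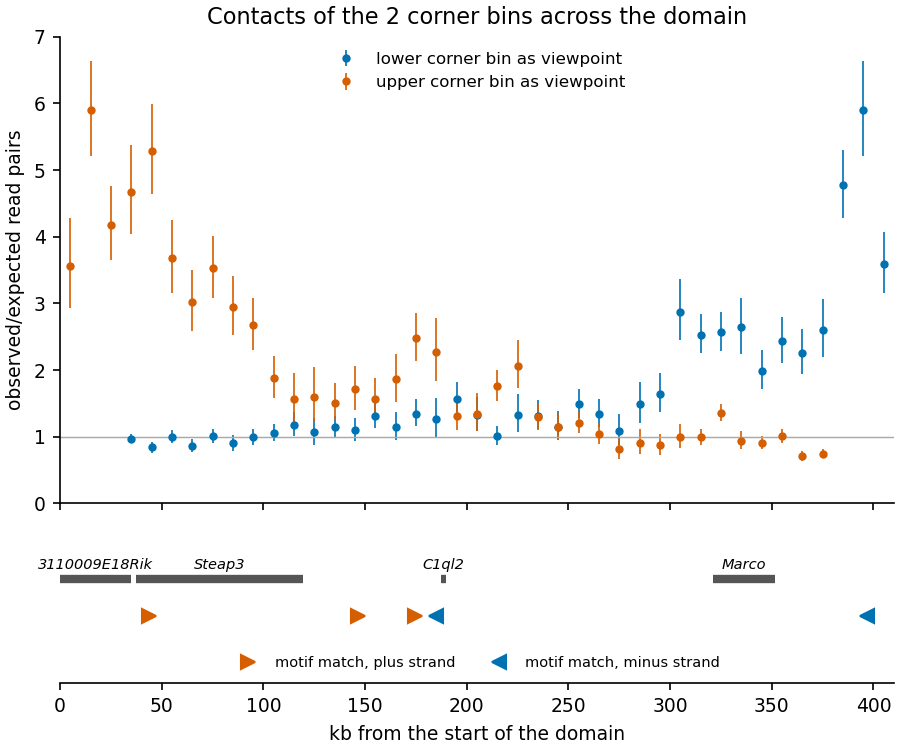
Observed/expected read pairs (vertical; points with exact Poisson 95% intervals) between each corner bin and the other 10 kb bins of the domain, against kb from the start of the domain (horizontal), with genes and motif matches below. Close to its own bin the lower corner bin starts at 0.971 and the upper at 0.747, and both series reach 5.89 at the opposite corner, and the upper bin has a further peak of 2.48 beside C1ql2.

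Bins with more DpnII sites had larger totals (Spearman's rho 0.762 over the 41 bins, which share their read pairs), while the summed O/E had a rho of 0.0595 with the number of DpnII sites, −0.0113 with GC content and −0.0174 with the total. GC content was 43.4 to 52.8% across the bins, with a median of 47.2% against 43.9% in the map.

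The gene starts were not the strongest points of the domain. The bins with the starts of Steap3 and Marco, 240 kb apart, had 137 read pairs and an O/E of 1.71 (1.44 to 2.02). Those of C1ql2 and Marco had 90 and 1.32 (1.06 to 1.62), and those of Steap3 and C1ql2 had 78 and 0.870 (0.688 to 1.09). With the corner bins on the opposite side, Marco had an O/E of 2.43 (2.10 to 2.79), C1ql2 of 2.27 (1.83 to 2.79) with the upper bin and 1.26 (0.990 to 1.58) with the lower, and Steap3 of 1.56 (1.23 to 1.96). Marco, 40 kb below the upper corner bin, met it at the expected rate, at 1.01 (0.912 to 1.12).

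A pair counted as enriched if its ends lay 100 kb or farther apart, it had 10 read pairs or more, its lower bound of O/E was above 1.5 and its value was above 1.5 times the ring. All 496 members at that distance could be tested and 43 were called (8.67%), where 2.65% of the 42447 map pairs tested were. The rule that set the domain used the same contacts, so nothing is read from this difference. Joining called pairs no more than 2 bins apart gave 5 clusters. The corner cluster had 24 pairs. The next, with 7 pairs, peaked between the bins 122080001 and 122370001, the 3′ ends of Steap3 and Marco, with 315 read pairs and an O/E of 2.92 (2.61 to 3.26) at 290 kb. Another, with 10 pairs, joined 122220001 to 122230000, the bin just above the sub-boundary, to the upper corner bin, as given above for matches 3 and 5. The last were single pairs, 122220001 with 122360001 (407 read pairs, 1.78, interval 1.61 to 1.96) and 122080001 with 122230001 (107 read pairs, 1.88, interval 1.54 to 2.28). The bins starting at 122080001, 122220001 and 122440001 thus each were an end of the peak pair in more than 1 cluster. At 5 kb, 94 of 1845 members were called (5.09%), where 4.33% of the 60721 map pairs tested were, so the members' share was near that of the map. All 4 pairs of the corner were among those called.

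The lowest members, named after their values were seen, often included the domain's first bin. The pair of 122050001 to 122060000 with 122070001 to 122080000, at 20 kb, was the lowest of all with 384 read pairs and an O/E of 0.611 (0.551 to 0.675), and 3 more of the 6 lowest included that first bin. Among these was its pair with 122250001 to 122260000 at 200 kb (47 read pairs, 0.639). At that distance 1 pair of low bins raises the map's mean, which lowers O/E. The lowest pairs without the first bin were 122360001 with 122380001 (0.626) over Marco's 3′ end and 122410001 with 122450001 (0.628), both within 40 kb.

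The same corner position, the second bin from the lower limit with the second from the upper, was read in the other domains. In the Gli2 domain it had 339 read pairs and an O/E of 4.14 (3.71 to 4.60), in the En1 domain 756 and 15.5 (14.4 to 16.6), and in the Insig2-Ddx18 domain 35 and 0.617 (0.430 to 0.858). The position had been singled out in the Steap3-Marco domain, where it is also the highest of its 9 pairs. In the Gli2 domain the highest of the 9 was another pair, 120660001 with 120970001, with 662 read pairs and an O/E of 6.78 (6.27 to 7.32), above the 5.89 of the Steap3-Marco corner. In the En1 domain the highest was 20.6. At the fixed position the Steap3-Marco corner was 1.42 times (1.21 to 1.67) that of the Gli2 domain, so the direction depended on which pair was read. Over the 9 pairs the ratio was 0.987 (0.933 to 1.04), a difference not detectable at this depth. Over the 9 pairs it was 0.378 times (0.358 to 0.399) that of the En1 domain and 4.79 times (4.33 to 5.30) that of the Insig2-Ddx18 domain.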

How the data were processed

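The authors deposited raw counts of read pairs and a Knight-Ruiz balanced (KR) contact signal per bin pair; the 5 and 10 kb tables were used, the 25 kb tables for 1 alternative. Per the submitters' processing notes, Bowtie2 2.3.4.1, Juicer 1.7.6 and SAMtools were used on mm9; per the file names, HiCUP was used with a mapping quality minimum of 30. The map held 6484654 read pairs. Balancing scales up the few reads of poorly covered bins.

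Balancing factors were recovered from count over KR. Expected counts were the map's mean KR at each distance times both factors. Intervals are exact Poisson or, for ratios of O/E, exact binomial, at 95%. The errors of slopes and of the rise were propagated from the counts, and intervals of the rise and of slope differences are normal intervals from these errors. Python 3.11.15, numpy 2.4.6, scipy 1.17.1, pandas 2.3.3 and matplotlib 3.10.9 were used, and scripts were tested on simulated data. No p-values were computed, since the tables hold 1 merged map with no values per sample. Named items are the genes with a start in the domain, the corner with its neighbours and 5 kb pairs, up to 5 sub-boundaries and 5 clusters, the 3 bins with the highest and lowest summed O/E and the 3 with the lowest totals; other pairs and bins were named after their values were seen. Members and lists were chosen with earlier results of these data known. Positions of the capture probes were not used here.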

Additional observations from a re-analysis of the deposited data

How the results depend on the processing

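Of 51 alternatives over 9 results, 19 stayed the same, 30 moved and 2 changed direction. Staying the same meant lying within the counting error of the reported value or, for results that are counts, within a fixed fold range of it. The decay slope was −0.693 over 20 to 200 kb, −0.447 over 50 to 300 kb, −0.393 over all member distances, −0.557 on raw counts, −0.559 at 5 kb, −0.593 with medians and −0.623 weighted by pairs. The domain's O/E was 1.14 with the expected taken from medians, 1.08 at 5 kb, 1.14 without low bins, 1.22 at 50 kb or more and 1.47 with the expected from distance alone. There were 2 sub-boundaries at a prominence of 0.1 and 2 on raw counts. The pooled ratio across the sub-boundary reversed to 0.978 at 20 to 100 kb and to 0.958 with the expected from member pairs of the same distance; it was 1.16 at 50 to 300 kb and 1.25 without low bins. The corner's O/E was 4.11 at 25 kb, 7.13 with medians and 3.85 with its 8 neighbours, and its ratio to the ring was 2.58 for a ring of 2 to 3 bins and 2.41 inside the domain. Enriched members numbered 124 at a threshold of 1.2 (25%, map 9.51%), 7 at 2 (1.41%, map 0.514%), 106 without the ring (21.4%, map 6.86%), 94 at 5 kb (5.09%, map 4.33%) and 0 with the expected from member pairs (map 0.408%); that last expected contains the few far pairs themselves, and it is the setting of 8 under which the corner was not called. Motif matches in the corner bins were 2 for the looser core, 1 for the stricter form and 4 with 1 mismatch. The far rise was 1.26 on raw counts and 1.27 without the corner bins.

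Settings for the rise and the expected without low bins were chosen after seeing the data. The map's mean KR at 200 kb was 121, or 87.7 without 1 pair of low bins that held 98 read pairs, which lowers O/E at exactly that distance. Leaving out a sample was not run because the map has no values per sample, and the rise without the first and last 3 bins left no far pairs. No paired analysis was possible because the merged map holds no column per sample. Depth limits single 5 kb pairs most, with 7 to 123 read pairs around the corner.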
